A study of Drosophila melanogaster with 18 samples.

Results

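The sites described here are GATC positions of the Drosophila melanogaster genome that carried Dam-PolII counts when the fusion was driven throughout the mesoderm and few when it was driven in the visceral mesoderm. In targeted DamID, a bacterial Dam methylase fused to a subunit of RNA polymerase II methylates the adenine of GATC near the DNA that the polymerase occupies, and only in cells where GAL4 is made. The series comprises 18 libraries of embryonic genomic DNA in 6 groups of 3 replicates, from embryos of stages 10 to 13. All 6 groups carried UAS-Dam-PolII, driven either by twi2xPE-GAL4 (twi, general mesoderm) or by bap-GAL4 (bap, visceral mesoderm). With each driver, embryos expressed Dam-PolII alone (Dam-PolII), together with UAS-Alk.DN, an extracellular part of the receptor tyrosine kinase Alk that acts as a dominant negative (Alk.DN), or together with UAS-Jeb, the Alk ligand Jelly Belly (Jeb).

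A site was selected when its mean over 3 libraries was at least 8 CPM (the count divided by the library total and multiplied by 1000000) with twi in both Dam-PolII and Alk.DN, and when the bap mean was at most 0.25 of the twi mean in both genotypes. Of 400733 GATC sites, 15716 reached 8 CPM in both twi groups, here called the sites occupied with twi, and 365 of these met the whole rule, which is 2.32% of the occupied sites and 0.0911% of all sites. The sites were thus chosen by their CPM in the Dam-PolII and Alk.DN libraries of both drivers, and these values are given as a description. The 6 Jeb libraries took no part in the choice, and only they are used for tests.

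Twist, the bHLH factor encoded by twi, is required early for the mesoderm as a whole. The mesoderm is then divided into somatic muscle, heart, visceral muscle, fat body, haemocytes and the somatic cells of the gonad, and bagpipe (bap) is switched on in the part that forms visceral muscle. A site selective for twi therefore need not belong to a single cell type. Within whole-embryo DNA, fewer cells of a type and less polymerase per cell cannot be told apart.

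The DNA around 8 of the sites is shown to locate the counted GATC and the short words searched below. The sequences are the plus strand of the Release 6 reference from RefSeq, 60 bases to either side. Capitals mark the counted GATC and any match on either strand to GATAAG, the word bound by GATA factors, or to CATATG and CACATG, E-boxes that Twist is known to bind. The first 4 are the leading sites by the smaller of the twi means on the chromosomes shown. The next 4 lie near CG3942, in srp and in pnr, and hold such a word within the window.
lncRNA:CR44700 exon, 2L:4351146-4351269: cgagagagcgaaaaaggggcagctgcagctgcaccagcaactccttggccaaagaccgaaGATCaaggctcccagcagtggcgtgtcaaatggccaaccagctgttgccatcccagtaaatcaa
intergenic, nearest protein-coding start plh, 3R:5025723-5025846: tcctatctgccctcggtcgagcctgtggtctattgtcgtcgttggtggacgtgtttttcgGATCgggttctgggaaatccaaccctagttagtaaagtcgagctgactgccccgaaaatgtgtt
intergenic, nearest protein-coding start CG3942, 3R:12251596-12251719: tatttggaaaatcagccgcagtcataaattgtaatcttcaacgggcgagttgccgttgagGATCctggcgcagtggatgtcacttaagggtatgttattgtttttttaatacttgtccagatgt
Tis11 intron, X:12668558-12668681: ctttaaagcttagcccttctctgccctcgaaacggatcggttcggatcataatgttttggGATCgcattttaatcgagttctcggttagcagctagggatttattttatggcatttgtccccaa
intergenic, nearest protein-coding start CG3942, 3R:12251105-12251228: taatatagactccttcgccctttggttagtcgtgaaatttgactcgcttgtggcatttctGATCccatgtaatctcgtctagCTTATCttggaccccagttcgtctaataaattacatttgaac
intergenic, nearest protein-coding start CG3942, 3R:12251261-12251384: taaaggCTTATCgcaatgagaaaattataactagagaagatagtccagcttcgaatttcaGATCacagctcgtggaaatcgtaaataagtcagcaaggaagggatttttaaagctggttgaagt
srp intron, 3R:15991712-15991835: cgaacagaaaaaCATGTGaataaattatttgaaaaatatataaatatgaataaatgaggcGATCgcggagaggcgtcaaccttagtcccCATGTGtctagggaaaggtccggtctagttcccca
pnr intron, 3R:16030077-16030200: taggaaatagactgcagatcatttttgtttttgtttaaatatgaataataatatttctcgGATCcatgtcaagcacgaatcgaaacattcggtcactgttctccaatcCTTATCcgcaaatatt

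Some library facts bear on every value below. Depth ranged from 1624349 counts (bap Jeb replicate 3) to 14095376 (twi Alk.DN replicate 3), so that 3 counts amounted to between 1.85 and 0.213 CPM. The first exon of jeb, which marks the Jeb transgene, held 249 to 621 CPM in Jeb replicates 2 and 3 of both drivers. In the library labelled Jeb replicate 1 it held 5.57 CPM (bap) and 4.93 CPM (twi), in the range of libraries without the transgene. The exons of twi held 23.2 CPM in the library labelled twi Jeb replicate 1, within the range of the bap libraries (4.74 to 57.9 CPM), and 132 to 520 CPM in the other twi libraries. At the first exon of jeb, the libraries labelled bap Dam-PolII held 367 to 470 CPM, against their label. The exons of Polr2A, a polymerase subunit gene, held 31.8 to 52.6 CPM in the Alk.DN libraries. They held 2040 to 2090 CPM in bap Dam-PolII and 260 to 269 in twi Dam-PolII. In Jeb they held 550 to 876 CPM with bap and 157 to 332 with twi. By the study's description all groups carried Dam-PolII, and why these levels differ was not tested. The libraries labelled Jeb replicate 1 also placed 14.5% (bap) and 12.9% (twi) of their counts at sites of a certain kind, against 54.3% to 60.5% in the remaining 16. At these sites, neither flanking GATC fragment has A or G next to the recognition letters on each of its ends. Of the selected sites, 224 are of that kind.

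At the 365 sites, the median of the group means was 22.6 CPM in twi Dam-PolII, 16.9 in twi Alk.DN and 15.4 in twi Jeb. With bap the medians were 2.25, 2.73 and 2.28 CPM. Across all sites occupied with twi, the twi Jeb median was 18.9 CPM and the bap Jeb median 15.8 CPM. Every twi library exceeded every bap library at all 365 sites in Dam-PolII and again in Alk.DN, which follows closely from the rule. No selected site was empty in all 6 bap Dam-PolII and Alk.DN libraries. At the edge of the rule, the sites just inside had a smaller twi mean of 8.03 CPM and a larger ratio of 0.249, and those just outside had 7.98 CPM and 0.251 (a further site lay just above 0.25). The ratio alone was met in Dam-PolII but not Alk.DN by 1644 of the occupied sites (10.5%) and in Alk.DN but not Dam-PolII by 129 (0.821%).

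**Figure D1:**
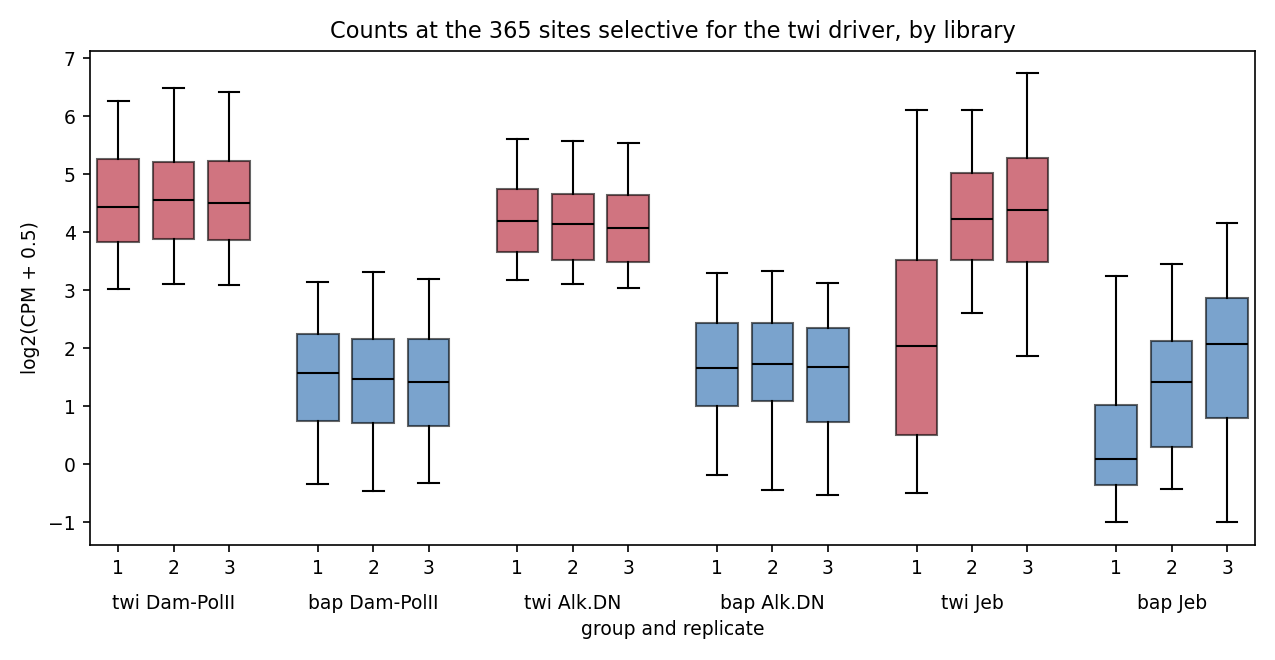
Box plots of log2(CPM + 0.5) at the 365 sites in each of the 18 libraries, with the median, the quartiles and whiskers to the 5th and 95th percentiles; red is twi and blue is bap. Among the Jeb libraries, which did not choose the sites, the twi medians are 3.59, 18.3 and 20.4 CPM and the bap medians 0.557, 2.17 and 3.69 CPM for replicates 1 to 3.

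The sites were spread over the genome. Chromosome arm 3R held 107, 2R 104, 2L 63, 3L 50, X 40 and chromosome 4 held 1. Joined where they lay at most 2000 bp apart, they formed 236 loci, of which 142 held 1 site, 73 held 2 and 21 held 3 or more. For 206 sites (56.4%) the next GATC on at least 1 side was selected too. Introns held 157 sites (43.0%), intergenic DNA 122 (33.4%), coding exons 37, non-coding exons 25, 5′ UTRs 18 and 3′ UTRs 6. Among all sites occupied with twi, 44.0% were intronic and 20.6% intergenic. The selected sites lay at a median of 1837 bp from the nearest annotated transcript start and the occupied sites at 951 bp. The shares within 1000 bp of a start were 36.4% and 50.9%. Thus the selected sites were more often intergenic and lay farther from annotated starts, as a description of the sites chosen and with no test.

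GATA factors such as Serpent and Pannier act in several mesodermal derivatives, Tinman acts in the heart and dorsal mesoderm, and Twist acts in the whole mesoderm. The word GATAAG, on either strand within 150 bp of the site, was present at 108 of the 365 sites (29.6%). It was present at 16.1% of the sites occupied with twi and at 12.2% of all sites. The same rule with the drivers exchanged chose 264 sites for bap, and of the 262 with a full window 11.5% held it. Taking the first site of each locus, 74 of 236 held it (31.4%). Within 100 bp the shares were 21.1% for the selected and 11.5% for the occupied sites. The E-box CACATG was present at 19.5% of the selected and 15.4% of the occupied sites, and TCAAGTG, a Tinman word, at 10.1% and 7.62%. The E-box CATATG was present at 9.86% and 10.1%. A match describes the letters only, and a word may share 1 end letter with the counted GATC.

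The leading sites by the smaller twi mean are the clearest examples of the pattern, and their Jeb values are new to them. A site in an exon of lncRNA:CR44700 on 2L (4351206) held 126, 117 and 136 CPM in twi Dam-PolII, 147, 137 and 132 in twi Alk.DN, and 3.80, 131 and 278 in twi Jeb. The bap values were 11.8, 8.98 and 6.41, then 23.8, 25.3 and 17.2, and in Jeb 2.51, 18.8 and 20.3 CPM. In Jeb, replicates 2 and 3 of twi stood above all bap libraries and the library labelled replicate 1 did not. The intergenic site on 3R near plh (5025783) held 5.64, 99.5 and 161 CPM in twi Jeb against 1.39, 6.75 and 22.2 in bap Jeb. The intergenic site near CG3942 held 4.72, 71.6 and 98.3 against 0.836, 4.58 and 12.9 CPM. Both had the same order, with replicate 1 of twi inside the bap range. In an intron of Tis11, which encodes a zinc finger protein of mRNA decay, twi Jeb held 18.8, 110 and 132 CPM and bap Jeb 1.81, 20.01 and 27.7 CPM. The remaining leading sites lay near the start of twi and in introns of sm, Cdk4 and fus, which encode an RNA-binding protein of the hnRNP class, a cyclin-dependent kinase and a further RNA-binding protein. The sm site held 11.0, 116 and 120 CPM in twi Jeb against 1.39, 8.92 and 19.7 in bap Jeb. The Cdk4 site held 11.4, 47.5 and 71.8 against 0.836, 2.17 and 7.39 CPM, with no overlap between the drivers. The fus site held 3.59, 52.9 and 54.6 against 1.53, 1.45 and 7.39 CPM. All 8 leading sites were called higher with twi in the edgeR fit with the replicate block described below, with log2 fold changes of 2.63 to 4.09 and adjusted p of 0.000249 to 0.00772. Without the block none of the 8 was called (adjusted p 0.38 to 0.606 by edgeR). Without replicate 1 of both groups some were called and others not (adjusted p 0.007 to 0.0122 by edgeR).

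**Figure D2:**
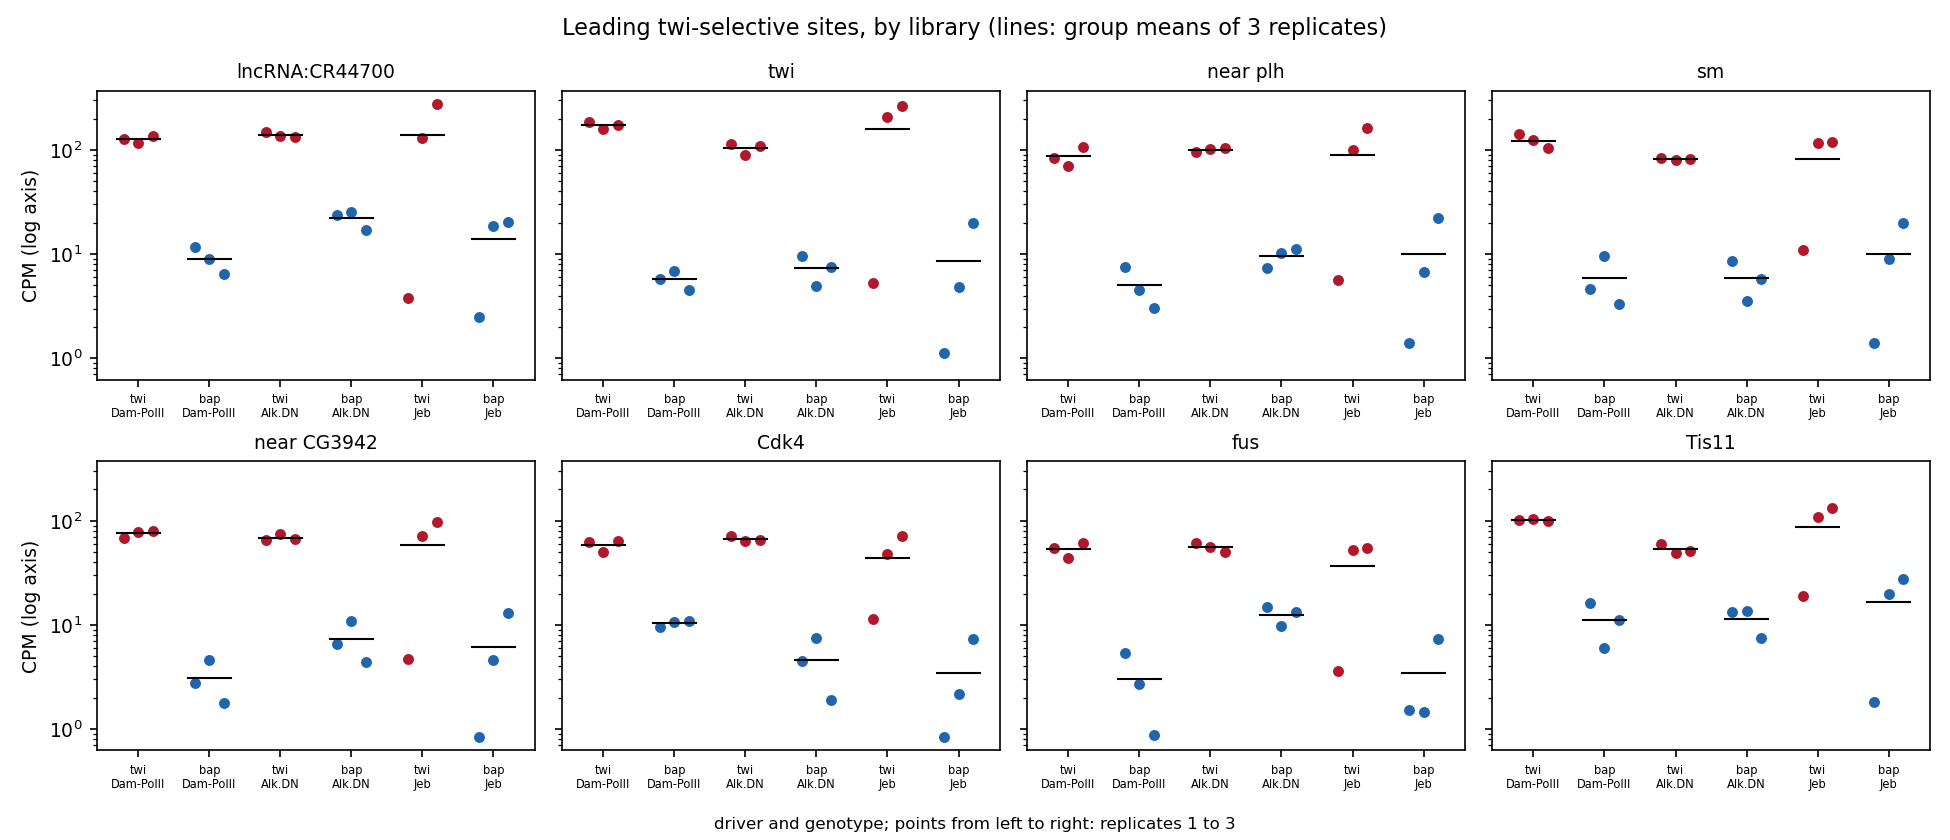
CPM (log axis) in each library at the 8 leading sites, named by the gene that holds them or the nearest protein-coding start; points are replicates 1 to 3 from left to right, lines are means, red is twi and blue is bap. With twi the replicates of Dam-PolII and of Alk.DN lie close together, and in both Jeb groups replicate 1 lies lowest or next to lowest.

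In the Jeb libraries, the twi mean exceeded the bap mean at 361 of the 365 sites (98.9%), against 61.4% of the sites occupied with twi. The bap Jeb mean was at most 0.25 of the twi Jeb mean at 295 (80.8%), against 10.2% of the occupied sites. Without replicate 1 of both groups this count was 295 as well. Both parts of the rule, 8 CPM and the ratio, were met in Jeb by 253 sites (69.3%). Every twi Jeb library exceeded every bap Jeb library at 148 of the 347 sites with enough counts to test, against 6.32% of all 60109 sites tested. Every bap Jeb library exceeded every twi Jeb library at 0 of the selected sites, against 6.42% of the sites tested. For comparison, 133 of the 264 sites of the mirror rule (50.4%) had a twi Jeb mean at most 0.25 of the bap Jeb mean.

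**Figure D3:**
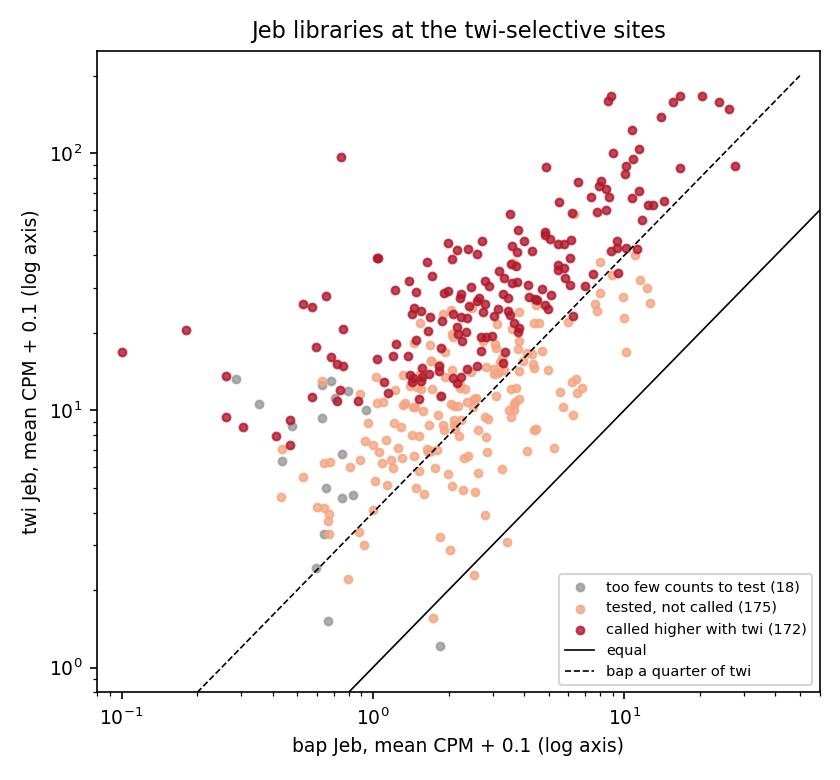
Mean CPM + 0.1 in twi Jeb against bap Jeb (log axes, 3 libraries each) at the 365 sites; colours show the call of the fit with the replicate number as a block, the solid line equality and the dashed line a bap mean of 0.25 of the twi mean. Nearly all points lie above equality, and 172 are called higher with twi.

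The difference between twi and bap in Jeb was tested by edgeR's quasi-likelihood test over all 60109 sites, with Benjamini-Hochberg adjustment and a call at an adjusted p under 0.01. Without a replicate term no site of the genome was called (0 of 60109, 0%), and so no selected site was. At an unadjusted p under 0.05, 210 of the 347 selected sites tested (60.5%) were higher with twi and 0 lower, against 4.17% of all sites. DESeq2's Wald test called 20 selected sites higher (5.76%), against 0.16% of all sites, and limma-voom 0 of either. The replicate numbers of the Jeb libraries were taken to pair across drivers, which the data do not settle (correlations under the methods). With the replicate number as a block, 172 of the 347 (49.6%) were higher with twi and 0 lower. In that fit 2.7% of all sites and 7.65% of the sites occupied with twi were called higher, and 2.85% of all sites lower. Without replicate 1 of both groups, 45 of 361 (12.5%) were called higher and 0 lower, against 0.219% and 0.292% of all sites. The median log2 fold change of the selected sites was 2.91 without the block, 2.87 with it and 2.95 without replicate 1, and that of all sites 0.11, 0.12 and 0.13. By the fragment ends that set the libraries labelled Jeb replicate 1 apart, the block fit called 99 of 212 sites with 0 flanking fragments bearing A or G at both ends, 63 of 118 with 1 and 10 of 17 with 2. The 172 sites called fell in 123 of the 236 loci and 86 genes, and 62 of them lay in no gene. The 18 sites that were not tested had too few counts in the Jeb libraries.

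The selected site with the smallest unadjusted p by edgeR without the block lay in the 5′ UTR of mbc. It is at 3R, 23781885, 120 bp inside the start. Myoblast city, the product of mbc, is an activator of Rac needed for myoblast fusion. The site held 66.3, 106 and 119 CPM in twi Jeb and 0.975, 0.964 and 0 in bap Jeb, with a log2 fold change of 6.79 ± 0.50 (SE) and an adjusted p of 4.33e-05 by edgeR with the replicate block, and an adjusted p of 0.312 without it. All twi libraries lay far above all bap libraries. In an intron of Pvr, the receptor for PDGF- and VEGF-related factors that haemocytes carry, a site (2L, 8229151) held 29.7, 25.9 and 27.9 CPM against 0.557, 0.482 and 0.616. Its log2 fold change was 5.70 ± 0.53, with an adjusted p of 0.000126 by edgeR with the block and 0.312 without. In an intron of RapGAP1, which switches off the small GTPase Rap1, a site (2L, 7540621) held 14.5, 25.8 and 21.4 CPM against 0.279, 0.482 and 1.23, with 5.27 ± 0.61 and an adjusted p of 0.000289 by edgeR with the block. In all 3 of these sites every twi Jeb library exceeded every bap Jeb library. A site in an intron of side, which encodes an immunoglobulin-domain protein of motor axon guidance, held 37.4, 6.23 and 6.73 CPM in twi Jeb and 0 in all 3 bap Jeb libraries. Against a floor of 3 counts in each bap library it was at least 16.8-fold higher, and at least 5.04-fold higher without replicate 1, where it was not called (adjusted p 0.0205 by edgeR). Only 2 sites had a lower fitted value in twi Jeb, a site in the 3′ UTR of CCT5 (log2 fold change −0.08) and an intergenic site near su(r) (−0.02), both with adjusted p of 0.996 or more by edgeR without the block, and their sign turned under other settings.

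At the gene level, 175 annotated genes held at least 1 selected site, which is 3.95% of the 4425 genes with a site occupied with twi. Counts summed over all GATC sites of a gene were tested in the Jeb libraries over 11730 genes. Without the block 0 genes were called (0%), and 65 of the 174 tested genes that hold a selected site were higher (37.4%) and 3 lower at an unadjusted p under 0.05, against 4.42% and 6.08% of all genes. With the block, 65 of these 174 (37.4%) were called higher with twi and 4 (2.3%) lower, against 2.99% of all genes higher and 5.32% lower. The share called lower was thus under that of all genes. DESeq2's Wald test called 21 higher (12.1%), against 0.691% of all genes. Without replicate 1 of both groups, 44 of 175 (25.1%) were called higher and 2 (1.14%) lower, against 1.62% and 3.85% of all genes. Without the block, no gene of any list below was called by edgeR.

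The gene with the most selected sites was serpent (srp, FBgn0003507, 3R, 15986152 to 16004085), a GATA factor that specifies fat body and haemocytes. It held 7 of them among 78 GATC sites, 6 in introns and 1 in a coding exon, from 2405 bp before to 2371 bp past its nearest annotated start. The summed counts of srp were 1078, 1642 and 1750 CPM in twi Jeb and 141, 187 and 300 in bap Jeb. All twi libraries were higher, with a log2 fold change of 2.78 ± 0.19 and an adjusted p of 1.19e-05 by edgeR with the block, and of 0.073 without it. In the groups that chose the sites, the means were 2145 and 998 CPM with twi (Dam-PolII and Alk.DN) and 269 and 406 with bap. Of its 7 sites 3 were called in Jeb with the block. The site 2405 bp before the start held on average 8.47 CPM in twi Jeb and 0.205 in bap Jeb. At the site 147 bp inside, in the coding exon, the means were 22.9 and 2.13 CPM. Of these sites 4 also lie within lncRNA:CR44133, which overlaps srp, so the counts of the pair cannot be told apart.

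Other genes of the fat body and haemocyte list held few selected sites. Besides srp, only ush, a FOG-class cofactor of GATA factors, held 1, among 7 listed genes with an occupied site. The ush site also lies within lncRNA:CR46259. Together srp and ush are 28.6% of the 7, against 3.95% of all genes with an occupied site. A gene with more occupied sites can more easily hold a selected one, so shares by site are given too. Among the 71 occupied sites in these 7 genes 8 were selected (11.3%), against 1.95% of those in all genes. Of the 8, 7 lie in srp. In Jeb with the block, 5 of the 10 listed genes tested were called higher with twi and 0 lower, against 2.99% and 5.32% of all genes, and the list's median log2 fold change was 1.66, against 0.06 over all genes. Pvr, outside that list and described as a gene after its values were seen, held 2 sites, and its gene sum was 149, 256 and 348 CPM in twi Jeb against 26.6, 100 and 102 in bap Jeb, with an adjusted p of 0.00109 by edgeR with the block. NimB4, of the Nimrod family of phagocytic receptors and chosen after its values were seen, held 2 sites in its coding exons. Its 4 GATC sites summed to 17.4, 55.5 and 34.7 CPM against 1.39, 10.6 and 10.5, with an adjusted p of 0.00357 by the same fit.

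In twist itself (twi, FBgn0003900, 2R, 22985374 to 23048325), the rule found 6 sites, which are all of its occupied sites. The site 213 bp before a twi start held 187, 160 and 174 CPM in twi Dam-PolII, 114.6, 89.3 and 108 in twi Alk.DN and 5.23, 207 and 266 in twi Jeb. In bap Jeb it held 1.11, 4.82 and 19.7 CPM. Replicates 2 and 3 of twi were far above bap, and the library labelled replicate 1 was not, with a log2 fold change of 4.09 ± 0.51 and an adjusted p of 0.000427 by edgeR with the block. Of the 6 sites 3 were called in that fit, all within 2000 bp of this start, and the other 3 lay in CG42741, which the long twi transcript overlaps. A further site 2578 bp past the start, beyond the gene, held 3.69, 31.6 and 26.2 CPM in twi Jeb and 0, 0.241 and 0 in bap Jeb. The summed gene did not reach the call with the block (adjusted p 0.0256 by edgeR) and did so without replicate 1 (0.000128). The twi2xPE-GAL4 driver carries copies of the proximal element of twi, so counts from the gene and from the driver construct cannot be told apart near this start.

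Of the genes that set somatic muscle identity, 4 of 16 with an occupied site held selected sites (25%, against 3.95% of all such genes). They are ap, a LIM-homeodomain factor, Poxm, a paired-box factor, Ptx1, a homeodomain factor, and nau, the fly relative of MyoD. Among the occupied sites in the 16 genes 12.7% were selected, against 1.95% of those in all genes. The summed counts of ap were 449, 326 and 403 CPM in twi Jeb against 53.0, 69.9 and 103 in bap Jeb, a log2 fold change of 2.33 ± 0.26. For Poxm they were 344, 195 and 265 against 36.1, 23.6 and 74.5 CPM, a change of 2.62 ± 0.30. For Ptx1 they were 129, 172 and 252 against 26.6, 28.4 and 60.3 CPM, a change of 2.22 ± 0.26. No twi library overlapped a bap library in these 3 genes, and their adjusted p with the block were 0.000168, 0.000211 and 0.000241 by edgeR. In nau, with 71.6, 343 and 384 against 18.9, 99.3 and 172 CPM, the groups overlapped and the adjusted p was 0.00141. Without the block the adjusted p of these 4 genes were 0.128 to 0.569. Over the whole list, 8 of 19 genes were called higher with twi and 0 lower with the block, against 2.99% and 5.32% of all genes. Without replicate 1, 3 were called higher, against 1.62% of all genes.

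Myoblast fusion joins founder cells, which display Kirre, with fusion-competent myoblasts, which display Sns. Of 10 fusion genes with an occupied site, sns, kirre and mbc (30%, against 3.95% of all such genes) each held 1 selected site. Among the occupied sites in these 10 genes 3.09% were selected, against 1.95% of those in all genes. The gene sums of sns, kirre and mbc differed from each other. The sum of sns was 252, 887 and 1123 CPM in twi Jeb and 47.1, 204 and 278 in bap Jeb, with a log2 fold change of 2.09 ± 0.20 and an adjusted p of 6.16e-05 by edgeR with the block, although replicate 1 of twi lay below replicate 3 of bap. For kirre it was 1144, 1878 and 2158 against 1763, 3423 and 2232 CPM, a log2 fold change of −0.61 ± 0.18 with an adjusted p of 0.0436 by the same fit. For mbc, whose 5′ UTR site was among the most selective, the gene means were 1097 and 868 CPM and the adjusted p was 0.318. Thus in mbc a site called in Jeb stood in a gene whose sum was not called. In the list, 4 of 11 genes were called higher and 0 lower with the block, against 2.99% and 5.32% of all genes.

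Of 9 early mesoderm genes with an occupied site, twi and zfh1 held selected sites (22.2%, against 3.95% of all such genes). Among the occupied sites in these 9 genes 7 were selected (5.93%), against 1.95% of those in all genes. Of the 7, 6 lie in twi. The gene zfh1 encodes a zinc finger homeodomain protein of the mesoderm, haemocytes and gonad. The sum of zfh1 was 751, 1039 and 1133 CPM in twi Jeb and 264, 259 and 329 in bap Jeb, with no overlap, a log2 fold change of 1.67 ± 0.19 and an adjusted p of 0.000196 by edgeR with the block. In the cardiac list only pnr, a GATA factor of the dorsal mesoderm and ectoderm, held sites (2), as 1 of 6 genes with an occupied site (16.7%). These 2 sites are 6.25% of the occupied sites in the 6 genes. Both were called in Jeb with the block, with means of 22.1 and 23.7 CPM against 1.78 and 1.33, while the gene sum was not (adjusted p 0.292 by edgeR). No selected site lay in the 13 sarcomere genes or in the 7 visceral mesoderm genes with an occupied site. Of all genes with an occupied site 3.95% held a selected site, so an absence from lists this short says little about these genes. In Jeb with the block, 6 of 13 sarcomere genes and 4 of 10 visceral mesoderm genes were called lower with twi and 0 higher, against 5.32% of all genes lower. Without replicate 1 the counts lower were 0 and 2, against 3.85% of all genes. Of the gonad list, Abd-B, a Hox gene of the posterior abdomen, held 3 sites and zfh1 its 1, among 5 genes with an occupied site. These are 40% of the 5, against 3.95% of all such genes. Among the occupied sites in the 5 genes 11.4% were selected, against 1.95% of those in all genes. The gene zfh1 counts in the early mesoderm list too, and the sum of Abd-B was not called (adjusted p 0.0707 by edgeR with the block). In Jeb with the block, 3 of 11 cardiac genes were called higher with twi and 1 lower (Hand). Of 5 gonad genes 2 were called higher and 1 lower (wun2), and of 11 early mesoderm genes 2 higher and 0 lower. The shares of all genes were 2.99% higher and 5.32% lower. Of the lists, 15 genes held a selected site, and 7 of them were called higher and 0 lower with the block (7 and 0 without replicate 1), against 18 higher and 13 lower of the 95 listed genes holding none.

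Markers of tissues outside the mesoderm were counted as well, since the twi driver may be active elsewhere. Of 6 such genes with an occupied site, pros, a homeodomain factor of the nervous system, held 1 selected site and Ubx, a Hox gene of the mesoderm and ectoderm, 3. The pros site also lies within KP78a and KP78b, so its counts cannot be assigned to pros alone. Together pros and Ubx are 33.3% of the 6, against 3.95% of all genes with an occupied site. Among the occupied sites in these 6 genes 10.3% were selected, against 1.95% of those in all genes. The 3 Ubx sites were intronic and all called in Jeb with the block, while the summed gene was 376 CPM on average in twi Jeb and 282 in bap Jeb (adjusted p 0.295 by edgeR). Among 15 genes of this list tested, 3 were called higher with twi with the block and 0 lower, against 2.99% and 5.32% of all genes. The part of cells outside the mesoderm in the selected sites was not tested.

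**Figure D4:**
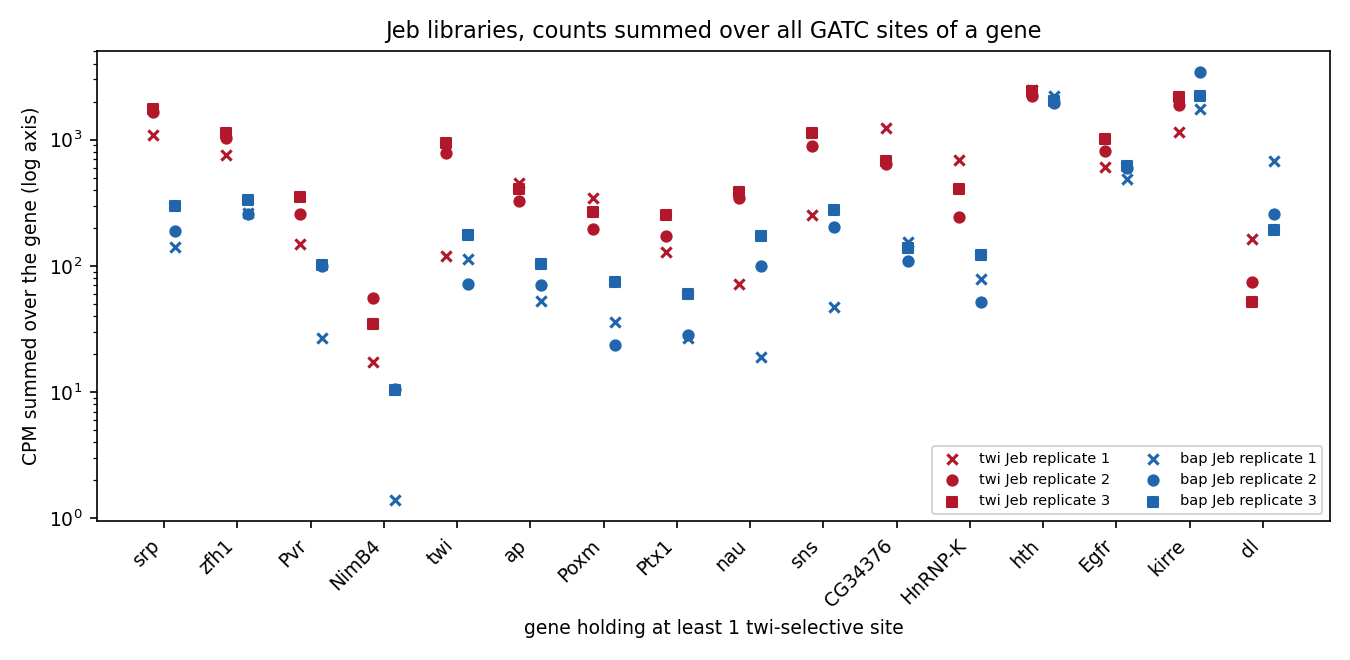
CPM summed over all GATC sites of a gene (log axis) in the 3 twi Jeb (red) and 3 bap Jeb (blue) libraries, for 16 genes that hold a selected site; crosses are replicate 1, circles replicate 2 and squares replicate 3. The twi libraries all lie above the bap libraries in srp, zfh1, Pvr, NimB4, ap, Poxm, Ptx1, CG34376 and HnRNP-K, lie close to them in hth and Egfr, and lie below them in dl.

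Among the other genes with the most selected sites, some were called by their summed counts and others at single sites alone. CG34376 held 4 intronic sites close together, and its sum was 1245, 643 and 671 CPM in twi Jeb against 156, 110 and 138 in bap Jeb, a log2 fold change of 2.52 ± 0.20 (adjusted p 2.68e-05 by edgeR with the block). HnRNP-K, which encodes an RNA-binding protein, held 4 sites and 692, 242 and 405 CPM against 79.0, 51.6 and 121, a change of 2.28 ± 0.27 (adjusted p 0.000248). All 4 sites of each gene were called with the block. By contrast hth, the homeodomain partner of Extradenticle, held 6 selected sites among 36 occupied ones, and its sum was 2488, 2232 and 2441 CPM against 2214, 1936 and 2025, a change of 0.12 ± 0.14 (adjusted p 0.639). Of its 6 sites 3 were called. The site with the largest difference, 85166 bp from the nearest protein-coding start, averaged 72.4 CPM in twi Jeb and 8.35 in bap Jeb. The EGF receptor gene Egfr held 4 sites among 25, with a gene change of 0.39 ± 0.18 (adjusted p 0.182) and none of its sites called. LanB1, a laminin chain, ct, a homeodomain factor, sli, the ligand of Robo receptors, and fus held 3 sites each, with gene changes of 0.52 to 0.90 that were not called. For sli, the antisense gene asRNA:CR46471 shares its 3 sites, so strand cannot be told apart.

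Within the twi driver, the selected sites varied with genotype. The median log2 ratio of twi Alk.DN to twi Dam-PolII was −0.35 at the selected sites and −0.10 at the sites occupied with twi. Every twi Alk.DN library lay below every twi Dam-PolII library at 156 sites (42.7%) and above at 51 (14%), against 34.2% and 23.3% of the occupied sites. In srp the summed means were 2145 and 998 CPM, in sns 1471 and 533, and in CG34376 756 and 269, all lower in twi Alk.DN. Other genes were higher in twi Alk.DN, among them ap (391 and 501), sli (702.5 and 937.9), Ubx (342.2 and 412.5) and Abd-B (303.8 and 379.8). These values come from the libraries that chose the sites and are given without a test.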

How the data were processed

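DamID counts were analysed for 18 libraries, placed in their groups by the deposited labels. The deposited values are raw counts, which the authors made by mapping read pairs to Release 6 of the FlyBase genome (bowtie2) and counting, per library and GATC site, the reads that abut the site. No filter was stated. Reads without molecular identifiers are not independent molecules, so the floor of 3 counts covers counting error only. The deposited peak tables hold the authors' own comparisons (p-values, false discovery rates and numbers of sites up or down per merged peak) and were not used here. All 383661 sites on the chromosome arms matched a GATC of the RefSeq Release 6 sequence, and genes were taken from Ensembl BDGP6.54 without transposable elements.

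CPM were counts divided by library totals. The twi and bap Jeb libraries were compared in R 4.3.3 with edgeR 4.0.16 (filterByExpr with a min.count of 10, TMM scaling, two-sided quasi-likelihood test, Benjamini-Hochberg adjustment over all sites or genes, call at an adjusted p under 0.01), with limma 3.58.1 and DESeq2 1.42.0 as alternatives. In self-tests on counts simulated without a replicate effect, the edgeR fit without the block recovered the direction of the changes put in. The fit with the block, limma-voom and DESeq2 were not tested in this way. The standard errors (SE) given with edgeR values are approximate: the absolute log2 fold change divided by the square root of the F statistic. The selected sites and the gene lists were chosen with earlier results of these data known. The study's methods call the 3 replicates of a group biological, and p-values without the block measure the spread between them. With the block, p-values measure the spread left after differences shared by libraries of the same number are removed. Replicate numbers in the labels are shared between groups. Deviations of the twi and bap Jeb libraries from their group means correlated over sites at 0.813, 0.609 and 0.594 for the same number. For different numbers they correlated at −0.68 to 0.44, with 0.436 and 0.425 between replicates 2 and 3. Deviations from a group mean cancel out within the group. A departure shared by both libraries labelled replicate 1 therefore makes replicates 2 and 3 correlate in every pairing. The check cannot settle which of them pair. The numbers were taken to pair the libraries, and values with the replicate number as a block are given beside those without. This check and the pairing come from the data, not from a label naming a shared batch.

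Sites named in the text are the 8 with the largest smaller twi mean (at least 2000 bp apart). For each direction in Jeb, they also include up to 5 of smallest unadjusted p by edgeR without the block. Genes named are the 15 with the most selected sites, with ties going to the larger summed twi mean, and every listed gene holding a selected site. Others are marked as chosen after their values were seen. A locus joins sites at most 2000 bp apart. Alternatives were other scalings, filters, tests and thresholds, all 18 libraries in 1 fit, the replicate block, leaving out libraries, and other limits of the rule. Figures were drawn with matplotlib 3.10.9.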

Additional observations from a re-analysis of the deposited data

How the results depend on the processing

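Without the block, no selected site and no gene holding one was called in Jeb by edgeR under either other scaling, either other filter, limma-voom, an adjusted p of 0.05, or without any single Jeb library. Selected sites and genes called higher with twi numbered 20 and 21 by DESeq2's Wald test, 87 and 48 with all 18 libraries in 1 fit, and 172 and 65 with the replicate block. Leaving out a replicate number of both groups gave 0 to 45 sites and 0 to 44 genes, the highest values without replicate 1. All sites called higher with twi numbered 0 without the block, 96 by DESeq2, 592 in the fit of 18 libraries, 1621 with the block and 142 without replicate 1. The cause of these differences was not tested.

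The number of selected sites was 774 with a minimum of 4 CPM, 161 with 16 CPM, 1870 with a largest ratio of 0.5, 64 with bap at most 1 in 8 of twi, and 237 with TMM library sizes. Leaving out a single library gave 349 to 412. Within 100 bp, GATAAG was present at 21.1%, CACATG at 12.9% and CATATG at 6.85% of the selected sites.

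The fitted log2 fold change of the CCT5 site turned positive at 0.14 (at least 1 count), 0.03 (18 libraries), 0.40 and 0.42 (without bap Jeb replicate 3 or twi Jeb replicate 1), and 0.07 and 0.39 (without replicate 1 or 3 of both). That of the su(r) site turned positive at 0.22 (at least 1 count), 0.13 (18 libraries), 0.05, 0.62, 0.52 and 0.33 (without bap Jeb replicate 2 or 3, or twi Jeb replicate 1 or 3), and 0.01 and 0.98 (without replicate 1 or 3 of both). Without single libraries or replicate numbers, the lowest value of the CCT5 site was −0.70 and that of the su(r) site −1.41. Gene values turned negative for hth (−0.02, −0.05 and −0.19 without bap Jeb replicate 2 or 3 or twi Jeb replicate 1), pnr (−0.01 without bap Jeb replicate 3 and −0.00 without replicate 3 of both) and mbc (−0.13 and −0.26 without bap Jeb replicate 3 or twi Jeb replicate 1), with highest values of 0.46, 1.07 and 0.86 without bap Jeb replicate 1. None of these values passed the test. The libraries labelled Jeb replicate 1 and the depth of bap Jeb replicate 3 limit what the 6 Jeb libraries can show.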

Other observations

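With the replicate block, 4 genes that hold a selected site were called lower with twi in the Jeb libraries by their summed counts, and were named after their values were seen. They are 2.3% of the 174 genes tested, against 5.32% of all genes called lower in that fit. The gene dl, which encodes the NF-kappaB-class factor Dorsal, held 2 selected sites, and its sum was 163, 74.9 and 51.8 CPM in twi Jeb against 675, 256 and 193 in bap Jeb, a log2 fold change of −2.003 ± 0.21 (adjusted p 0.000121 by edgeR). In ftz-f1, which encodes a nuclear receptor, the sum was 225, 596 and 715 against 745, 1626 and 1091 CPM, a change of −1.36 ± 0.23 (adjusted p 0.00216 by edgeR). For CG43078 the change was −1.58 ± 0.23 and for nebu −0.80 ± 0.17. Without replicate 1 of both groups dl and CG43078 were called (adjusted p 0.00199 and 0.00809 by edgeR), and ftz-f1 and nebu were not (0.0155 and 0.0402). Without the block none of the 4 was called. In each of dl, ftz-f1 and CG43078 every twi library lay below every bap library. In nebu the groups overlapped through replicate 1 of bap, which held 265 CPM against 201 to 1032 in twi.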
